A study of Mus musculus with 6 samples.

Results

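The large-subunit cytosolic ribosomal proteins were taken as every row of the deposited FPKM table whose symbol, in upper case, is RPL with a number and an optional A, or RPLP0 to RPLP2. The rule left out pseudogenes, retro-copies and the L paralogs, and it found 46 of the 18388 genes in the table. Morula-like aggregates, which model the compacting mouse embryo, were made from mouse expanded pluripotent stem cells and kept in N2B27LCDM and then in an induction medium. The 3 tested libraries came from aggregates treated with PFOA (perfluorooctanoic acid, a persistent fluorinated surfactant), and the 3 controls from aggregates given the vehicle DMSO. The labels name no genotype, strain, clone, dose or length of exposure, and nothing in them says that replicates were grown as separate cultures. The p-values therefore reflect only how much these 6 libraries varied, and that variation may be technical.

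The large subunit of the ribosome carries the peptidyl transferase centre, where amino acids are joined, and the tunnel through which the new chain leaves. Its proteins coat a core of ribosomal RNA, and each is needed in about the same amount, although a cell can regulate their mRNAs at transcription and at translation. Most of these mRNAs begin with a run of pyrimidines, the terminal oligopyrimidine (TOP) tract, through which mTOR signalling and LARP1 set their translation. Pluripotent and early embryonic cells transcribe ribosomal protein genes at high levels, and MYC, which the series title names, is known to act on ribosome production.

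Most member transcripts were a little lower in PFOA, and no single one passed the test. Of the 46 members, 44 had a log2 fold change below 0, with a median of −0.16, or −10.6%, whereas the median over all 11876 genes tested was −0.01 with 52.4% of them below 0. All 46 had a mean of at least 1 FPKM and so all were tested. FPKM is a fragment count scaled by transcript length and by the library's mapped fragments. Values were compared as log2(FPKM + 1) in limma, and a gene was called at a Benjamini-Hochberg adjusted p under 0.05. None of the members was called (0 of 46), against 0.00842% of all genes, and the lowest adjusted p of a member in limma was 0.11. At an unadjusted p under 0.05 in limma, 26 members were lower, where 12.5% of all genes were, and 0 were higher, where 8.56% of all genes were. In 32 of the 46, each PFOA library lay below each DMSO library, which held for 13.7% of all genes, and in 0 of them it lay above, which held for 13.5%. Genes outside the members with a longest transcript under 1000 nt were lower by a like amount, with a median of −0.16, and with a trend on length removed the members' median was −0.02. The part of transcript length in the result was not tested beyond these values. In bulk RNA, fewer cells of a type and less RNA per cell cannot be told apart.

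Sequences around annotated transcription starts show what many members share that the rule did not use. RefSeq promoter windows, on build GRCm38.p6, were found by symbol for 34 members in 40 windows of 300 bases. Shown for 11 members are 50 bases before and 25 bases after the start, 5′ to 3′ on the gene's strand, with capitals marking the longest run of C and T letters that overlaps the stretch from 5 bases before to 20 after the start, where that run has at least 8 letters. Of the 8 members of smallest p, Rpl34, Rpl13a, Rpl18 and Rpl15 have such a run, and Rpl5, Rpl26, Rpl27 and Rpl22 do not. All of these but Rpl22 are shown. Rplp2, Rpl38 and Rpl39, which have a run, and Rpl41, which has none, are shown by role.
Rpl34 (chr3:130730313-130730387, minus strand): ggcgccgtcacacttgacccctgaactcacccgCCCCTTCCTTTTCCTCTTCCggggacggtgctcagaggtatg
Rpl13a (chr7:45128721-45128795, minus strand): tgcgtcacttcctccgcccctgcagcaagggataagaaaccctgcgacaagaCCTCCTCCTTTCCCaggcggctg
Rpl18 (chr7:45718021-45718095, plus strand): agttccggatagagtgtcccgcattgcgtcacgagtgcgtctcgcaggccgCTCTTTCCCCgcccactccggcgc
Rpl15 (chr14:18270962-18271036, minus strand): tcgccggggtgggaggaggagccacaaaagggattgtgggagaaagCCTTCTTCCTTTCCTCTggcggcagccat
Rplp2 (chr7:141447601-141447675, plus strand): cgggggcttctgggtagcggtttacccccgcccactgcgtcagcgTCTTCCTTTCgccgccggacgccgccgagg
Rpl38 (chr11:114668530-114668604, plus strand): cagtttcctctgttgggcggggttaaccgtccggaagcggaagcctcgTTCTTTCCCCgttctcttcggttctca
Rpl39 (chrX:37085198-37085272, minus strand): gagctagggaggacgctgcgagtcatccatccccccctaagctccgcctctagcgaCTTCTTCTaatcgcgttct
Rpl5 (chr5:107900478-107900552, plus strand): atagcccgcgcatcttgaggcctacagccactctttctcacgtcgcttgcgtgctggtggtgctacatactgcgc
Rpl26 (chr11:68901516-68901590, plus strand): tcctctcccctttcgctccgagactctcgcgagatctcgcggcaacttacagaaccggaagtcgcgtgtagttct
Rpl27 (chr11:101442195-101442269, plus strand): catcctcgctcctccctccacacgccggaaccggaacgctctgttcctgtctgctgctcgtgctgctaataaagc
Rpl41 (chr10:128549144-128549218, minus strand): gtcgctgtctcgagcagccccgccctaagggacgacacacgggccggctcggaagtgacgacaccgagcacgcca

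A run of at least 8 C or T letters at the start stood in 42.5% of the 40 member windows, against 14.4% of the 12212 windows of tested genes and 14.6% of all 32851 windows. For the 17 members with such a run, the log2 fold change had a median of −0.15, and all 17 were lower in PFOA. For the 17 with a window but no run, the median was −0.20 and 16 were lower, so the direction was the same with and without it. Other words were searched on both strands of the whole window. The ETS core CCGGAAG stood in 35.0% of member windows and 18.1% of tested-gene windows and the YY1 core AAGATGGC in 12.5% and 4.5%. The E-box CACGTG, bound by MYC and MAX, stood in 17.5% of member windows and 10.2% of tested-gene windows. The YY1 core stood in 5 windows of only 3 members, and the E-box in 7 windows of 5 members. Overlapping windows of the same gene can count the same site again. CCAAT stood in a lower share of member windows, 30.0% against 38.6% of tested-gene windows. These matches describe letters in the annotated windows, whose starts may lie some bases from the starts used in these cells.

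Levels per length differed 52.5-fold between the highest and the lowest member. By mean FPKM over the 6 libraries, 38 of the 46 lay at 1000 or above, and the median was 1811. The highest was Rpl23a, at the exit of the peptide tunnel where signal recognition particle docks, with 3998, 4577 and 4531 FPKM in PFOA 1 to 3 and 4955, 4922 and 4713 in DMSO 1 to 3. Its log2 fold change was −0.16, and −0.09 without PFOA 1. The next were Rpl41 and Rplp1, and the lowest were Rpl34, Rpl22 and Rpl21. For 40 members, at least 20% of the 50-nt words of the longest coding transcript also occur in transcripts of other genes, and for 21 members at least 50% do. Those levels are uncertain, since reads from such stretches may have been split between rows. Rpl34 shares only 6.9% of its words, yet the row of its processed pseudogene Rpl34-ps1 had a mean of 2394 FPKM, against 87.9 for Rpl34. The low level of Rpl34, and with it the 52.5-fold range, is therefore uncertain as well.

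**Figure D1:**
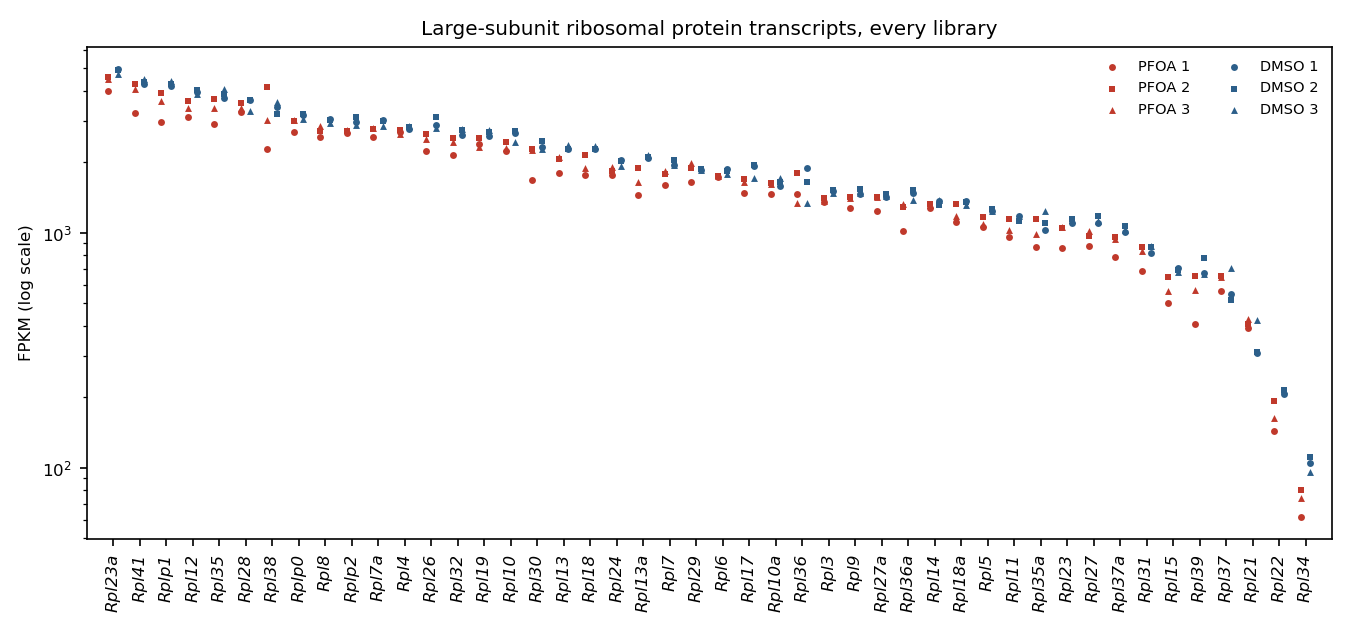
FPKM (log scale) of each of the 46 members, ordered by mean level, in every library (PFOA in red left of DMSO in blue; circle, square and triangle are replicates 1, 2 and 3). Levels run from Rpl23a to Rpl34, and the red circle of PFOA 1 is the lowest point for 41 members.

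The P-stalk recruits the elongation and other GTPases to the ribosome, and its 4 genes were all lower in PFOA without overlap. That held for 32 of all 46 members and for 13.7% of all genes. Rplp1, an acidic stalk protein, had 2961, 3919.9 and 3628 FPKM in PFOA 1 to 3, against 4216, 4282 and 4416 in DMSO 1 to 3. The means were 3503 ± 491 in PFOA and 4305 ± 102 in DMSO (SD over 3 libraries each; log2 fold change −0.31, SE 0.10, limma adjusted p = 0.159). PFOA 1 was the lowest of the 3 treated libraries, the treated spread was wider than that of the controls, and without PFOA 1 the log2 fold change was −0.19. Its partner Rplp2 had 2648, 2696 and 2731 in PFOA and 2954, 3118 and 2859.8 in DMSO (log2 fold change −0.14, SE 0.057, limma adjusted p = 0.203). Rplp0, which anchors both to the ribosome, had 2685, 2977 and 3016 in PFOA and 3156, 3190.1 and 3033 in DMSO (−0.11, SE 0.064, adjusted p = 0.344). Here PFOA 3 and DMSO 3 nearly met, and without PFOA 1 the log2 fold change was −0.06. For Rpl12, at the base of the stalk, the log2 fold change was −0.24 with a limma adjusted p of 0.146.

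Rpl5 and Rpl11 form the 5S RNP with 5S ribosomal RNA, and outside the ribosome this particle binds and inhibits Mdm2, the ubiquitin ligase of p53. Rpl5 had 1058, 1165 and 1088 FPKM in PFOA and 1236, 1266 and 1239 in DMSO (1104 ± 55.5 against 1247 ± 16.3; log2 fold change −0.18, SE 0.051, limma adjusted p = 0.137). The groups did not overlap. Rpl11 had 962, 1145 and 1029.8 in PFOA and 1177, 1124 and 1181 in DMSO (log2 fold change −0.15, SE 0.067, limma adjusted p = 0.233). PFOA 2 lay above DMSO 2, so the groups overlapped, and without PFOA 1 the log2 fold change was −0.10.

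All 5 genes of the peptidyl transferase core, the tRNA contacts and the L1 stalk were lower, and the median of their log2 fold changes was −0.16. Rpl3, which reaches towards the peptidyl transferase centre, had 1349, 1402 and 1359 FPKM in PFOA and 1498, 1520.3 and 1468 in DMSO (log2 fold change −0.13, SE 0.046, limma adjusted p = 0.18). Replicates lay close together and the groups were apart. Rpl10, which is added last, in the cytoplasm, and makes the subunit ready to join the small subunit, had 2225, 2437 and 2299 in PFOA and 2646, 2708 and 2433 in DMSO (−0.16, SE 0.064, adjusted p = 0.205). PFOA 2 and DMSO 3 overlapped by a small margin. The largest difference of the 5 was in Rpl36a, at the exit site of the tRNA (log2 fold change −0.28, limma adjusted p = 0.169), and the smallest in Rpl10a of the L1 stalk (−0.07, limma adjusted p = 0.539).

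The 9 genes of the peptide exit tunnel and its rim had a median log2 fold change of −0.21, all 9 being lower and 8 without overlap. Over all 46 members 32 were lower without overlap, and over all genes 13.7% were. Rpl39, a very small protein in the tunnel wall, had 407, 656 and 571 FPKM in PFOA 1 to 3 and 676, 782 and 669 in DMSO 1 to 3 (545 ± 126 against 709 ± 63.4; log2 fold change −0.40, SE 0.15, limma adjusted p = 0.194). The value in PFOA 1 was 0.664 times the mean of PFOA 2 and 3, and without PFOA 1 the log2 fold change was −0.21. Rpl22, a protein of the outer surface near the tunnel exit that mouse T cells need for their development, had 143, 191 and 163 in PFOA and 206, 215 and 214 in DMSO (166 ± 24.2 against 212 ± 4.64; −0.36, SE 0.090, adjusted p = 0.128). Rpl26, at the rim of the exit, had 2222, 2628 and 2499 in PFOA and 2868, 3113 and 2793 in DMSO (−0.26, SE 0.077, adjusted p = 0.143). In Rpl39, Rpl22 and Rpl26, each PFOA library lay below each DMSO library. The smallest difference of the 9 was in Rpl4, which also lines the tunnel (log2 fold change −0.06, limma adjusted p = 0.531).

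The 3 genes of the bridges between the subunits were lower, the median of their log2 fold changes being −0.20, and none of the 3 reached an unadjusted p under 0.05. Rpl41, which encodes a tiny peptide that reaches into the small subunit, had 3222, 4283 and 4070.3 FPKM in PFOA and 4282, 4387 and 4503 in DMSO (log2 fold change −0.20, SE 0.10, 95% confidence interval −0.43 to 0.04, limma adjusted p = 0.313). PFOA 1 was set apart from the other 5 libraries, which lay close together, and without it the log2 fold change was −0.07.

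Of the 23 other body proteins, 21 were lower, 11 of them at an unadjusted p under 0.05, and the log2 fold changes ran from −0.52 to 0.25. At that p, 26 of all 46 members and 12.5% of all genes were lower. Rpl34 had 61.8, 80.4 and 74.3 FPKM in PFOA and 104, 111 and 95.4 in DMSO (72.1 ± 9.48 against 104 ± 7.96; log2 fold change −0.52, SE 0.093, 95% confidence interval −0.74 to −0.31, limma adjusted p = 0.11). It had the lowest p and the lowest level of all members. Rpl13a, which in human monocytes is released from the ribosome under interferon-γ to silence inflammatory mRNAs, had 1441, 1876 and 1644 in PFOA and 2088, 2102 and 2144 in DMSO (1654 ± 218 against 2111 ± 29.0; −0.36, SE 0.089, adjusted p = 0.128). DMSO libraries differed by little, and PFOA libraries were spread below them. Rpl27 had 880.0, 972 and 1017 in PFOA and 1104, 1176 and 1122 in DMSO (−0.25, SE 0.061, adjusted p = 0.128). Rpl18 had 1765, 2135 and 1893 in PFOA and 2271, 2274 and 2347 in DMSO (−0.25, SE 0.073, adjusted p = 0.138). Rpl15 had 502, 648 and 566 in PFOA and 706, 691 and 679 in DMSO (−0.28, SE 0.083, adjusted p = 0.142). In each of these, the groups were apart and PFOA 1 was lowest.

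Other body proteins showed little difference or wide spread. Rpl38, which mouse embryos need for the translation of Hox mRNAs, had 2276, 4159 and 3007 FPKM in PFOA and 3435, 3211 and 3589.6 in DMSO (log2 fold change −0.16, SE 0.18, 95% confidence interval −0.58 to 0.26, limma adjusted p = 0.65). PFOA held both the highest and the lowest library, and without PFOA 1 the log2 fold change was 0.05. Rpl29 had 1650.2, 1877 and 1984 in PFOA and 1841, 1871 and 1845 in DMSO (−0.02, 95% confidence interval −0.18 to 0.15). Rpl36 had 1459, 1798 and 1334 in PFOA and 1889, 1645 and 1341 in DMSO, and it too spread widely within both groups. The members whose human orthologues are mutated in Diamond-Blackfan anaemia, an inherited failure of red cell production, were all lower (9 of 9, median log2 fold change −0.24, 7 of them at an unadjusted p under 0.05 and 0 called in limma). Of all 46 members, 44 were lower, 26 of them at that p, where 12.5% of all genes were.

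**Figure D2:**
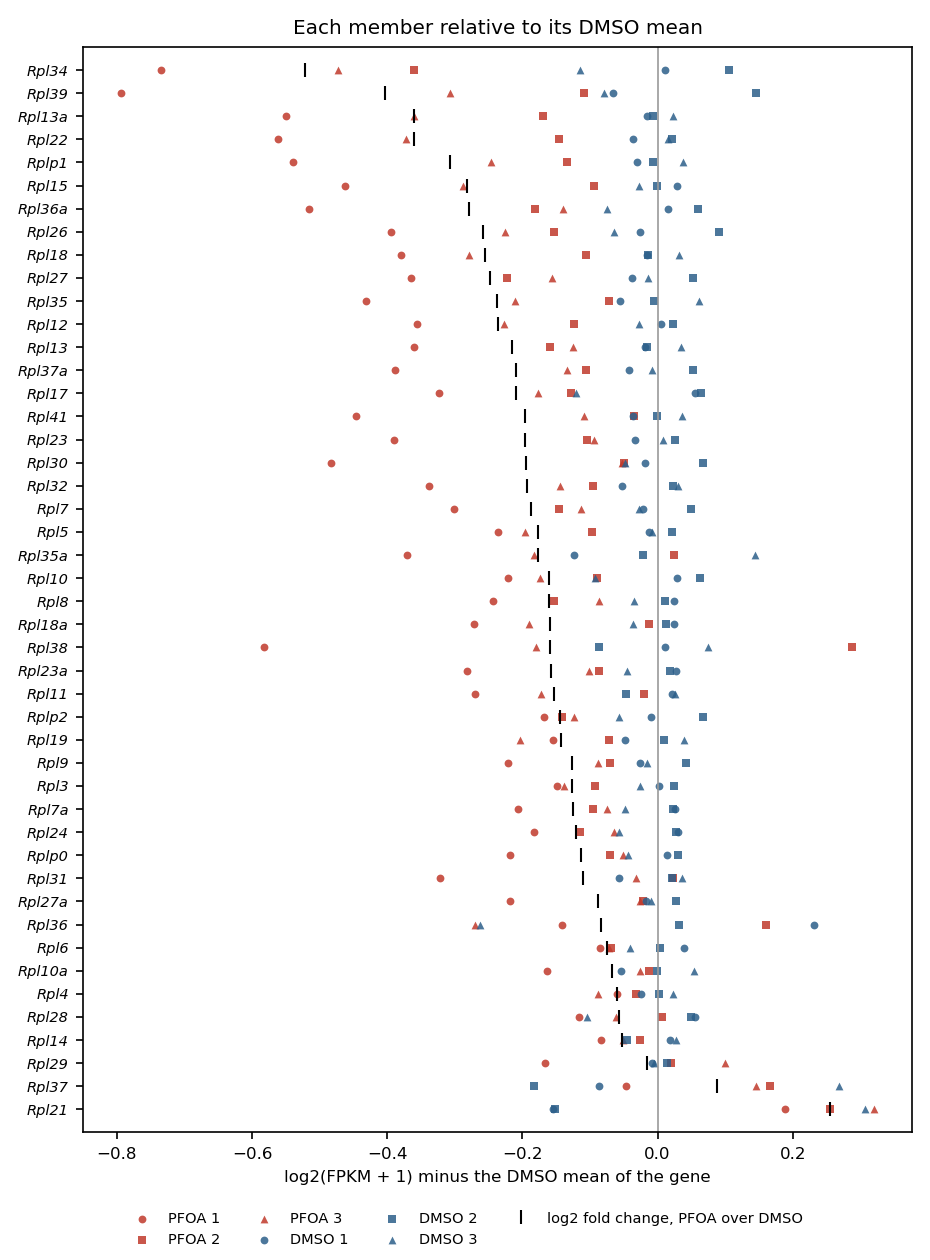
For each member (rows, ordered by log2 fold change), log2(FPKM + 1) in each library minus the mean of the DMSO libraries of that gene, with PFOA in red, DMSO in blue and the black tick at the log2 fold change. Red circles (PFOA 1) lie leftmost for most genes, and Rpl37 and Rpl21 at the bottom have DMSO 1 and 2 to the left.

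Libraries did not contribute equally. PFOA 1 was the lowest of the 6 libraries for 41 of the 46 members, PFOA 3 for 3, and DMSO 1 and DMSO 2 for 1 each. The members' median deviation from the DMSO mean was −0.29, −0.09 and −0.14 in PFOA 1 to 3 and −0.02, 0.02 and −0.01 in DMSO 1 to 3. All members together made up 13.2%, 14.4% and 13.8% of all FPKM in PFOA 1 to 3 and 14.4%, 14.6% and 14.7% in DMSO 1 to 3. The share of PFOA 2 lay beside that of DMSO 1. Replicates were less alike in PFOA, where the median coefficient of variation of a member was 8.24%, than in DMSO, where it was 2.94%. Without PFOA 1, 42 of 46 members were lower, with a median of −0.11.

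The members that stood above 0 were Rpl21 and Rpl37, and in both the controls were split. Rpl21 had 391.8, 410.4 and 429 FPKM in PFOA 1 to 3, against 309, 309 and 425 in DMSO 1 to 3 (log2 fold change 0.25, 95% confidence interval −0.01 to 0.51, limma adjusted p = 0.244). DMSO 3 lay among the PFOA libraries, and DMSO 1 and 2 lay below all others. Rpl37 had 565, 656 and 647 in PFOA and 550.4, 515 and 704 in DMSO (log2 fold change 0.09, limma adjusted p = 0.678), again with DMSO 1 and 2 below the rest. These were the only members whose mean over DMSO 1 and 2 was at most 0.8 times DMSO 3, at 0.727 times for Rpl21 and 0.756 times for Rpl37. The median over members was 1.01 times.

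Rows of retro-copies, the processed pseudogenes made from reverse-transcribed mRNAs, were set beside these, since they carry part of the same sequence. Rpl37rt, which shares 31.3% of the 50-nt words of Rpl37, had 144, 146 and 160.0 FPKM in PFOA and 333, 329 and 146 in DMSO. Rpl31-ps12 had 0, 0.48 and 0.35 in PFOA and 64.4, 59.5 and 0 in DMSO. Gm13653, a retro-copy of Rpl21, had 0, 0.48 and 0.78 in PFOA and 29.1, 36.9 and 0 in DMSO. In all of these, DMSO 1 and 2 were high and DMSO 3 was like the PFOA libraries. Gm11703 and Gm15682, which share 14.3% and 12.8% of the words of Rpl21, were also highest there, and Gm11703 had 903, 1278 and 1123 in PFOA and 1805, 1707 and 1051 in DMSO. Of 18 retro-copy rows with a mean of at least 1 FPKM, 6 were at least 1.5 times as high in DMSO 1 and 2 as in any other library. This count was not made over the rest of the genes, so whether the split is particular to such rows is not known. Gm12816, a retro-copy of Rpl3, went the opposite way with 37.5, 38.7 and 39.5 in PFOA and 17.2, 20.4 and 41.8 in DMSO.

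Summing a member with its retro-copy rows changed the picture for some members. This was added after the data were seen, for the 17 members with 32 such rows. The sum for Rpl37 was 709.6, 802 and 807 FPKM in PFOA and 883, 844 and 850.4 in DMSO (log2 fold change −0.15, 95% confidence interval −0.29 to −0.02, limma adjusted p = 0.188), so that the groups no longer overlapped. The sum for Rpl21 was 1339.9, 1757 and 1611 in PFOA and 2338, 2222 and 1527 in DMSO (log2 fold change −0.35, 95% confidence interval −0.72 to 0.01, limma adjusted p = 0.247). Here DMSO 3 still lay among the PFOA libraries. With the rows summed, 46 of 46 members were lower, with a median of −0.18, and 0 were called in limma, with 27 lower at an unadjusted p under 0.05, where 12.6% of all genes were. For Rpl34, the row of its retro-copy Rpl34-ps1 was far higher than its own, with 1873, 2619.7 and 2196 in PFOA and 2423, 2570.4 and 2684 in DMSO. Summed, Rpl34 had a log2 fold change of −0.22 (95% confidence interval −0.47 to 0.03, limma adjusted p = 0.283), and the groups overlapped. Which row the reads of such pairs came from cannot be told apart in this table.

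**Figure D3:**
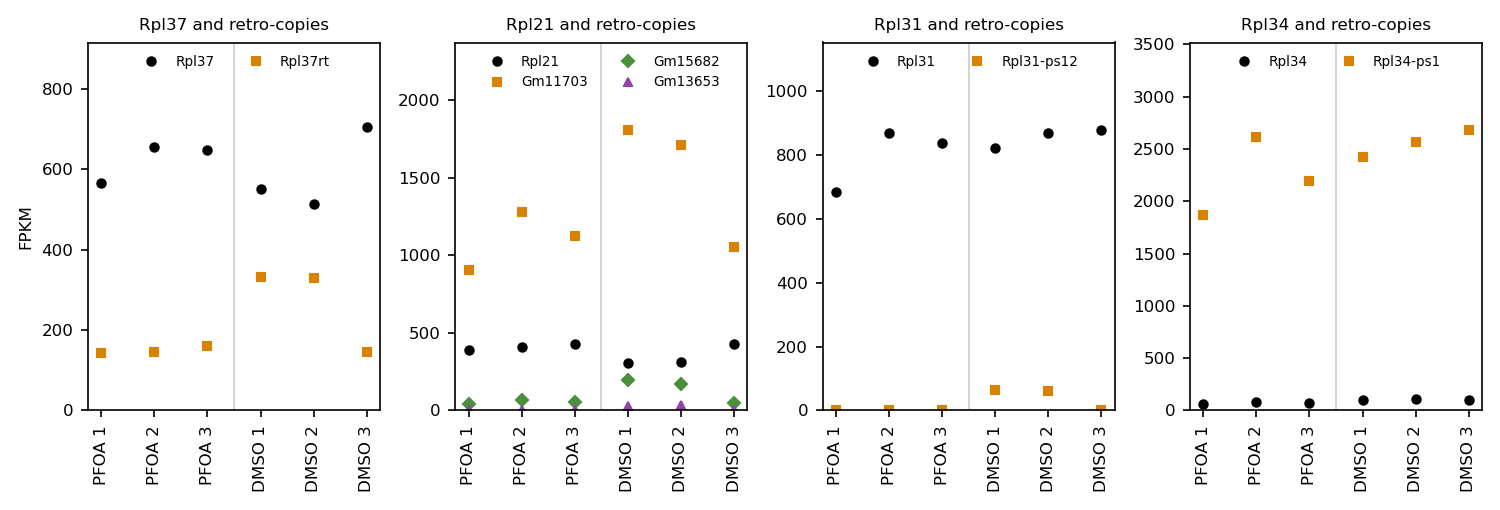
FPKM of Rpl37, Rpl21, Rpl31 and Rpl34 (black circles) and of rows of their retro-copies (coloured) in each library, PFOA left of the grey line and DMSO right of it. Rpl37rt, Gm11703, Gm15682, Gm13653 and Rpl31-ps12 are high in DMSO 1 and 2, where Rpl37 and Rpl21 are low, and Rpl34-ps1 lies far above Rpl34.

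Transcript length moved with the groups over the whole table. Outside the members, 575 of the 668 genes with a longest transcript under 1000 nt were lower, or 86.1%. Of the 7013 genes of at least 1000 but under 4000 nt, 65.3% were lower, and their median log2 fold change was −0.04. Of the 3809 genes with one of 4000 nt or more, 22.2% were lower, and their median log2 fold change was 0.07. The members are short as well, with a median of 955 nt and a range from 383 to 2989 nt. The median log2 fold change was −0.17 for the 24 members under 1000 nt and −0.16 for the 22 longer ones. Across members, length and log2 fold change had a Spearman rho of 0.0919 (n = 46, all from the same 6 libraries), against 0.596 across the 11490 other genes with a length. In the short genes outside the members, the deviations from the DMSO mean were −0.26, −0.09 and −0.13 in PFOA 1 to 3 and 0.00, 0.02 and −0.03 in DMSO 1 to 3, so PFOA 1 was the lowest there too.

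With a per-library trend on the longest transcript removed, 28 of 46 members were lower with a median of −0.02, and an unadjusted p under 0.05 was reached by 7 lower and 2 higher members, where 7.05% of all genes were lower at that p. The medians per library were then −0.08, −0.01 and −0.02 in PFOA and −0.03, 0.01 and 0.01 in DMSO, and the groups overlapped. Rpl34 was still at −0.41 (SE 0.070, limma adjusted p = 0.191), Rpl22 at −0.30 (SE 0.083, adjusted p = 0.246) and Rpl13a at −0.23 (SE 0.062, adjusted p = 0.246), each without overlap. Rpl27 went to −0.08 and Rpl38 to 0.05. Some annotated longest transcripts may not be the main mRNA of these cells (2989 nt for Rpl18, 2690.0 nt for Rpl9). Scaling mattered as well: FPKM summed to between 585739 and 630644 in PFOA and between 641975 and 657239 in DMSO. With all libraries set to the same sum, 37 of 46 members were lower with a median of −0.07, while the median over all genes was 0.07. Quantile normalization left 31 of 46 lower with a median of −0.02, while the median over all genes was 0.01. That method sets the same value at each rank in every library, so it can take out a joint shift of the most abundant rows, as the members are.

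**Figure D4:**
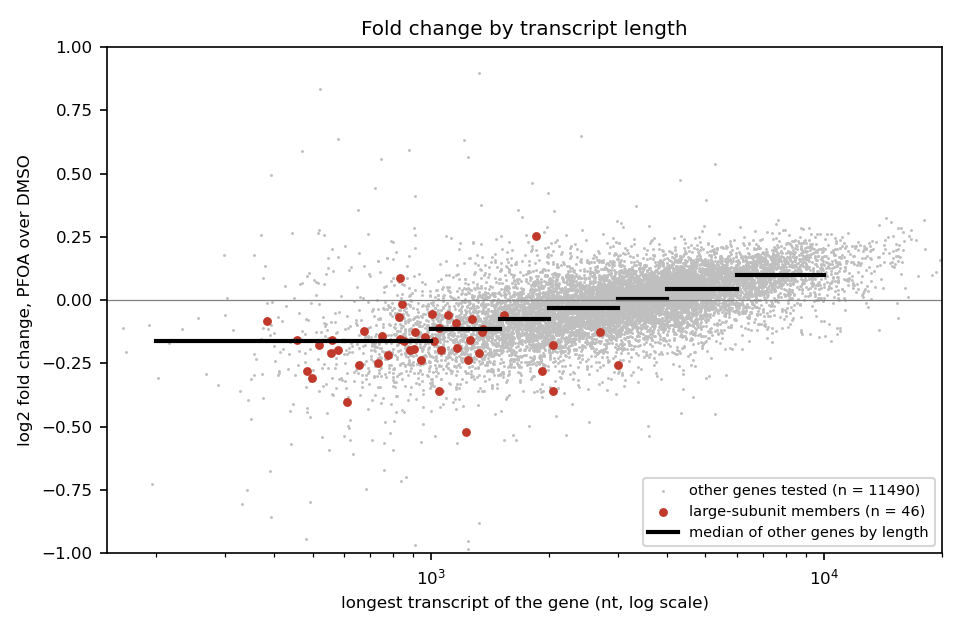
Log2 fold change of PFOA over DMSO against the longest transcript of the gene (log scale) for the 46 members (red) and 11490 other genes (grey), with the median of the other genes in length bins (black lines). Short genes lie below 0 and long genes above it, and the members scatter around the medians of other genes of like length, with Rpl34 below and Rpl21 above. Genes beyond ±1 are outside the axis.

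**Figure D5:**
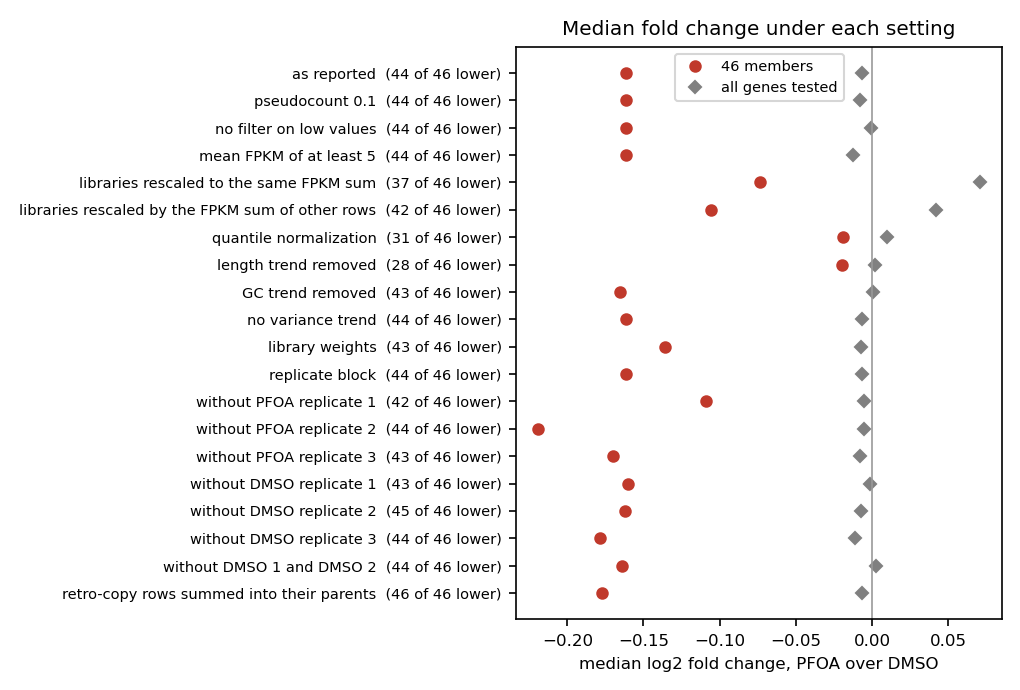
Median log2 fold change of PFOA over DMSO under each setting for the 46 members (red circles) and for all genes tested (grey diamonds), with the number of members lower in brackets. The members' median lies nearest to 0, at −0.02, with the length trend removed and under quantile normalization, and lowest without PFOA 2.

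Other parts of the translation machinery were set beside the members, from lists written with earlier results of these data known, and the differences between lists were not tested. Of 31 small-subunit proteins, 30 were lower, with a median of −0.19 (15 at an unadjusted p under 0.05, 0 called in limma). Of 78 mitochondrial ribosomal proteins, 76 were lower, with a median of −0.12 (39 and 0). At that p, 12.5% of all genes were lower in PFOA. A list of translation elongation genes and other TOP mRNAs was less shifted, with 15 of 19 lower and a median of −0.06. The median length in that list was 2193 nt. In it, Eef1e1 and Tpt1, a growth-related TOP mRNA, had the smallest p, with log2 fold changes of −0.22 and −0.19 (limma adjusted p = 0.128 and 0.161). Eef1e1 has an elongation factor name, but its protein is a factor bound to the tRNA synthetase complex. The abundant elongation factor mRNAs Eef1a1 and Eef2 were at 0.01 and 0.00, and Pabpc1, the poly(A)-binding protein, was at 0.06 (limma adjusted p = 0.953, 0.979 and 0.516).

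Genes that build the large subunit showed no common direction. Of 45 assembly and export factors, 22 were lower and 23 higher, with a median of 0.00 (an unadjusted p under 0.05 for 6 lower and 2 higher ones, 0 called in limma), and their median length was 2700.0 nt. At that p, 12.5% of all genes were lower and 8.56% higher. Mdn1, the very large ATPase that strips assembly factors from the precursor, had 30.8, 26.2 and 24.7 FPKM in PFOA and 20.4, 21.3 and 23.0 in DMSO (log2 fold change 0.32, SE 0.080, limma adjusted p = 0.128). Rpf2, which brings the 5S RNP into the precursor, had 56.6, 54.96 and 60.4 in PFOA and 61.6, 69.5 and 63.7 in DMSO (−0.18, SE 0.055, adjusted p = 0.152). Of 17 regulators of ribosomal protein genes and TOP mRNAs, 12 were higher and 5 lower, with a median of 0.05 (an unadjusted p under 0.05 for 6 higher and 2 lower ones, 0 called in limma) and a median length of 5122 nt. Of the 3809 genes outside the members with a longest transcript of at least 4000 nt, 800 were higher and 71 lower at that p. Larp1, the TOP mRNA binding protein, had 76.9, 69.5 and 71.5 in PFOA and 64.7, 65.1 and 65.0 in DMSO (log2 fold change 0.16, SE 0.043, limma adjusted p = 0.134). Whether transcript length had a part in these values was not tested gene by gene.

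The labelled cell type was checked against its markers. All 10 pluripotency markers had a mean of at least 10 FPKM and they summed to between 4032 and 4517 in PFOA and between 4665 and 4880 in DMSO. Of 10 fibroblast markers, which feeder cells would carry, 3 had a mean under 1 FPKM and 0 were listed at 0 in every library, and the sum lay between 22.9 and 25.9 in PFOA and between 24.4 and 30.2 in DMSO. The pluripotency sum was lower in PFOA, although 5 of the 10 markers were lower and 5 higher, and its part in the result was not tested. Each library listed from 16823 to 16913 genes above 0, and the sequencing depth is unknown.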

How the data were processed

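RNA-seq was carried out on 3 PFOA-treated and 3 DMSO-treated libraries of morula-like aggregates. Per the labels' protocols, polyadenylated RNA from 1.2 µg of total RNA was sequenced on a BGISEQ-500. The authors deposited FPKM to 2 decimals, 1 column per library. HISAT2 2.0.4, Bowtie2 2.2.5 and build GRCm39 are named, per the submitters' processing notes, without their roles, and no source used here names the counting tool or the annotation. The deposited table gives no counts, so depth and counting error are unknown. FPKM scales by length and by library total, so both can move a group of short, abundant transcripts.

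Rows with a mean of at least 1 FPKM were fitted as log2(FPKM + 1) with limma 3.58.1 under R 4.3.3. The prior variance was allowed to follow mean level, with Benjamini-Hochberg adjustment over 11876 genes. A fold change on that scale understates changes of low genes. The fit was also run on simulated data with the same spread in both groups and no shared shift of a library. These libraries differ from that, so the run cannot vouch for the fit here. The members, gene lists and alternatives were chosen with earlier results of these data known. Length, GC content and shared words came from GENCODE M21 transcripts (97.1% of tested genes had a length), matched by symbol. Genes given in full are the 8 members of smallest p, the 3 highest and 3 lowest in level, the extremes in fold change and 11 members set by role. Others were named after their values were seen, as ends of a role group, as wide in spread, or as parents of retro-copies.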

Additional observations from a re-analysis of the deposited data

How the results depend on the processing

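The count over all genes was 1, and it was 0 with low genes kept in, with a constant prior variance, with the length trend removed, with the replicate number as a block, and without DMSO 1 and 2 together, which leaves 1 DMSO library, assumed to vary like the PFOA ones, and little power to call. It was 2 with the GC trend removed or with library weights, and leaving out single libraries gave 0 to 94. The 94 came without PFOA 2, where Rpl34, Rpl13a, Rpl22 and Rpl15 passed (limma, adjusted p = 0.0441, 0.0456, 0.0353 and 0.0498), and without DMSO 3 it was 52, where Rpl21 passed as higher (log2 fold change 0.41, adjusted p = 0.0222). No member passed under the other settings. The members' median was −0.0732 with libraries set to the same FPKM sum, −0.0192 under quantile normalization and −0.0196 with the length trend removed, where 28 were lower. Leaving out single libraries gave medians from −0.22 to −0.11 and 42 to 45 members lower. The difference in the members' share of all FPKM was −0.77 percentage points, and −1.06 to −0.45 with a library left out.

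Of the 19 members given in full, these changed sign: Rpl11 under quantile normalization (0.0077), Rpl11 (0.0018), Rpl23a (0.0327) and Rpl38 (0.0488) with the length trend removed, Rpl38 when single libraries were left out (−0.3813 without PFOA 2 to 0.0533 without PFOA 1), and Rpl21 without DMSO 1 and 2 (−0.0513) or with its retro-copies summed (−0.35). Among the other members more changed sign under quantile normalization and with the length trend removed, where Rpl29 was at 0.14. The cause was not tested. With the replicate block, 44 members were lower with a median of −0.16. Same-numbered libraries did not deviate together over all genes (correlations of −0.11, −0.01 and −0.14). These are deviations from means of 3 libraries, so they cannot tell whether same-numbered libraries were handled together. Groups without overlap numbered 16 members at the same FPKM sum (4.66% of all genes), 20 when scaled by other rows (7.25%), 7 under quantile normalization (10.3%) and 10 with the length trend removed (9.47%). The depth is unknown, so counting error could not be separated from the spread between libraries.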
